A study of Mus musculus with 6 samples.

Results

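Interferon-stimulated genes were followed in the prostates of mice given testosterone and estradiol. The 39 genes were taken by symbol from the deposited gene table of 34745 genes, and all 39 had enough counts to be tested. They cover 7 roles: transcription factors of the interferon response, RNA and DNA sensors, the ISG15 and IFIT group, the OAS enzymes with the kinase PKR, other antiviral proteins, PARP proteins and interferon-induced GTPases.

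Interferons are secreted proteins that bind receptors on the cell surface and switch on antiviral genes through JAK kinases and STAT proteins. Type I and type III interferons act through ISGF3, a complex with STAT2 and IRF9 that binds the interferon-stimulated response element (ISRE). Type II interferon, made mainly by T cells and NK cells, acts through another element, the gamma-activated site (GAS). Many of these genes also have a low level of expression without infection, as in most tissues.

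RNA was sequenced from whole prostate tissue of 6 male C57BL/6 mice, 3 per group, that were 6 to 8 weeks old before 1 week of acclimatization. Mice of the T + E2 group carried 1 subcutaneous pellet at a time, of 10 parts testosterone to 1 part estradiol, renewed each month over 12 weeks. CON mice had the skin incision without a pellet. Each library came from a different mouse, and the model holds no group with 1 hormone alone, so the effects of testosterone and estradiol cannot be told apart.

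Library totals ranged from 14816146 to 16555549 counts. CON 2 and T + E2 2 stood apart, since the summed level of the seminal vesicle genes Svs2, Svs4, Svs5 and Svs6 was 9889 CPM (counts scaled to a common library total) in CON 2 and 600.4 CPM in T + E2 2, against 0.629 to 3.71 CPM in the other 4 libraries. Probasin (Pbsn), the secretory protein that marks prostate luminal cells, was at 12357 CPM or more in every CON mouse and between 1259 and 1754 CPM in T + E2, so the tissue label held in both groups. Whole tissue was measured, so fewer cells of a type and less RNA per cell cannot be told apart.

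Promoters of 29 of the 39 genes were in the RefSeq promoter table used here (GRCm38.p6), each from 250 bases before to 50 bases after the transcription start. They were searched on both strands for the core of the ISRE, GAAANNGAAA or its reverse complement TTTCNNTTTC, and for the core of the GAS, TTCNNNGAA. The ISRE core lay in 52.9% of the members' promoters against 3.44% of the 32851 promoters listed, and the GAS core in 32.4% against 8.30%. Ifit1 and Ifit3 are shown because these neighbours on chromosome 19 each hold a pair of ISRE cores and differed in their result, Isg15 for its chain of cores, Bst2 as a gene that rose, and Gbp7 as a GTPase gene with both kinds of core. Each sequence covers the 160 bases before the start, written 5′ to 3′ on the gene's strand, with the ISRE and GAS cores in capitals.
Ifit1: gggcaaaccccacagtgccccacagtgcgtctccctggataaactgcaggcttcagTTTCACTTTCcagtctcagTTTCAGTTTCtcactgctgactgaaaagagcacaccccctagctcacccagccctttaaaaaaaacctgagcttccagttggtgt
Ifit3: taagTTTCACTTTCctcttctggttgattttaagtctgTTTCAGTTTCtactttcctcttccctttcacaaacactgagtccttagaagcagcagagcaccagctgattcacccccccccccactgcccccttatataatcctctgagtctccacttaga
Isg15: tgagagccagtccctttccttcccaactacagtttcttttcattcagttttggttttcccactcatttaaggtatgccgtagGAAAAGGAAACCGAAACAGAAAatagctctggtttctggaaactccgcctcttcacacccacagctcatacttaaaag
Bst2: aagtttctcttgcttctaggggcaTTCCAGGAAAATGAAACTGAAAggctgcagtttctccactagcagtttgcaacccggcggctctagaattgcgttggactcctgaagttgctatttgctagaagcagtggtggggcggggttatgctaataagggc
Gbp7: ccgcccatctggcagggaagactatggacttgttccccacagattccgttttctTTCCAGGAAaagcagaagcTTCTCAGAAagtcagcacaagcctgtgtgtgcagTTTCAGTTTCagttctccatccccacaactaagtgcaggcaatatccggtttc
These stretches lie at chr19:34640729-34640888 (plus strand) for Ifit1, chr19:34583369-34583528 (plus) for Ifit3, chr4:156200819-156200978 (minus) for Isg15, chr8:71537473-71537632 (minus) for Bst2 and chr3:142530176-142530335 (plus) for Gbp7. In Isg15 the capitals are 3 overlapping ISRE cores, and in Bst2 they are a GAS core that overlaps the first of a pair of overlapping ISRE cores. A match is a run of letters and not a measured binding site.

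The first question was how these genes differed between hormone-treated and control prostates. At an adjusted p under 0.05 (edgeR's quasi-likelihood test, adjusted over all 15580 genes tested), 10 of the 39 genes were lower in T + E2 and 2 were higher. The 10 lower genes were Stat2, Irf7, Irf9, Ifit1, Ifi44, Oasl2, Mx1, Rtp4, Xaf1 and Parp9, and the 2 higher genes were Oas2 and Bst2. That is 25.6% lower against a background of 9.25% of all genes tested, and 5.13% higher against a background of 10.4%. The median log2 fold change of the 39 was −0.25, and of all genes tested −0.0021.

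Most of the changes were moderate in size. Only Mx1, Ifi44 and Oas2 also passed an absolute log2 fold change of 1, which is 7.69% of the members and 7.64% of all genes tested. Values of the 3 CON and the 3 T + E2 mice did not overlap for 18 members (14 lower, 4 higher), or 46.2%, where 40.7% of all genes tested did not overlap. Without CON 2 and T + E2 2, the libraries with seminal vesicle transcripts, 2 members were higher and 3 lower (Stat2, Oasl2 and Xaf1), and those 3 were 7.69% of the members against 3.40% of all genes. Leaving out CON 1 or T + E2 1 gave 6 lower genes in each case. That was 15.4% of the members, against 6.56% of all genes without CON 1 and 5.81% without T + E2 1.

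**Figure D1:**
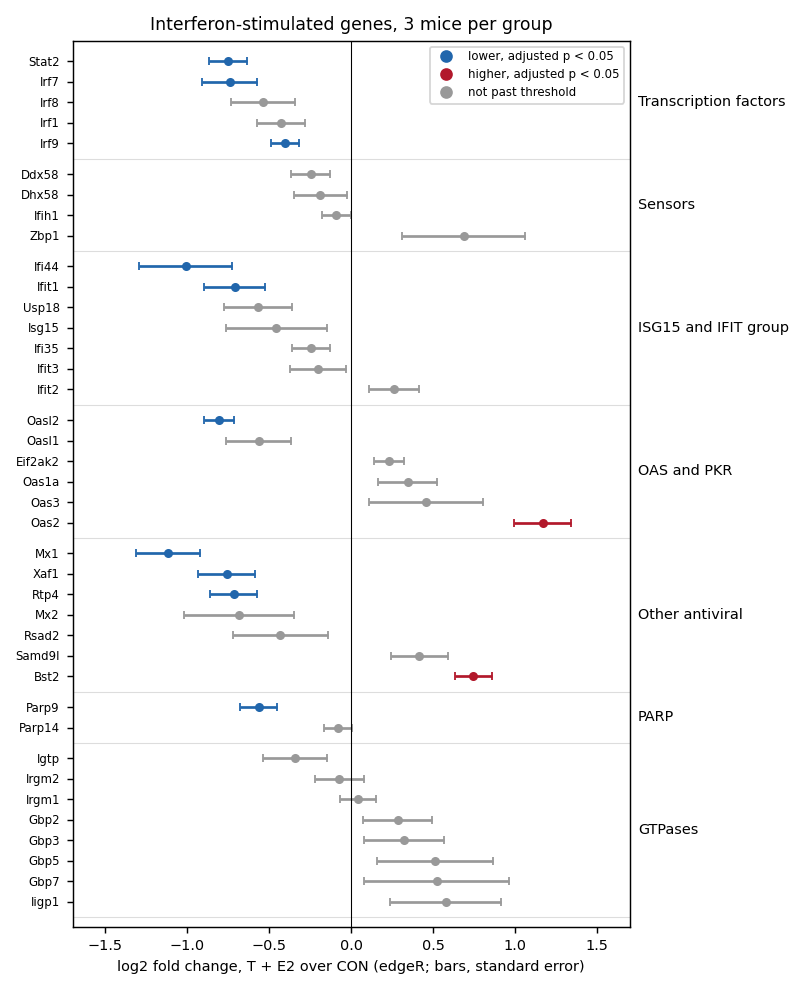
Log2 fold change of each of the 39 interferon-stimulated genes, T + E2 over CON (x axis; bars, standard error of the edgeR fit, 3 mice per group), by role. Blue and red points passed an adjusted p of 0.05. The 5 transcription factors all lie left of 0, whereas 6 of the 8 GTPases lie right of it.

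Of the 5 transcription factors of the response, Stat2, Irf7 and Irf9 fell, and Irf1 and Irf8 did not pass the test. That is 60% lower, against 9.25% of all genes tested. For all 5 every T + E2 mouse was below every CON mouse, where 40.7% of all genes tested did not overlap in 1 direction or the other. Their median log2 fold change was −0.54. Their summed level was 246, 235 and 254 CPM in CON 1 to 3 and 168, 150.0 and 167 CPM in T + E2 1 to 3.

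Stat2 (chr10:128270576-128292849), the STAT protein specific to ISGF3, was measured at 104, 108 and 118 CPM in CON and at 70.1, 55.9 and 70.1 CPM in T + E2. The groups were well apart, and the log2 fold change was −0.75 ± 0.12 (SE; adjusted p = 0.0035). Irf9 (chr14:55603571-55610030), which gives ISGF3 its DNA contact, read 56.5, 56.2 and 62.3 CPM in CON and 44.3, 43.5 and 44.4 CPM in T + E2. The T + E2 mice were almost level with each other, and the change was smaller, with a log2 fold change of −0.40 ± 0.08 (adjusted p = 0.0138). Irf7 (chr7:141262706-141266481), the factor that amplifies type I interferon production, had 26.3, 19.0 and 22.3 CPM in CON and 11.7, 12.7 and 16.0 CPM in T + E2. Its log2 fold change was −0.74 ± 0.17 (adjusted p = 0.0185), with T + E2 3 the nearest to the controls.

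Irf1, an early factor of the type II response, had a log2 fold change of −0.43 (adjusted p = 0.0783), and Irf8, a factor of myeloid cells, one of −0.54 (adjusted p = 0.0902). The call on Irf9 was lost without T + E2 1 (adjusted p = 0.0525). That on Irf7 was lost without CON 1 (adjusted p = 0.0535), CON 3 (0.0533), T + E2 1 (0.0592) or T + E2 2 (0.0683). Irf9 shares 123 exon bases on its strand with Rnf31, and Irf7 45 bases on the opposite strand with Phrf1.

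None of the 4 sensors passed the test, by edgeR or by DESeq2, and none had an unadjusted p under 0.05 (0 by edgeR). Ifih1 (MDA5) and Ddx58 (RIG-I), which detect viral RNA in the cytoplasm, had log2 fold changes of −0.09 and −0.25, and their regulator Dhx58 (LGP2) one of −0.19. Zbp1, a sensor of left-handed nucleic acids, had the largest difference of the 4. It was measured at 3.11, 1.77 and 1.32 CPM in CON and 4.50, 3.11 and 2.40 CPM in T + E2, so the groups overlapped (log2 fold change 0.69 ± 0.37, adjusted p = 0.235).

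Ifit1 and Ifi44 fell among the 7 genes of the ISG15 and IFIT group (28.6%, against 9.25% of all genes tested), and the other 5 did not pass the test. IFIT proteins bind viral RNA that lacks the host's cap marks, and ISG15 is a ubiquitin-like protein that Usp18 removes from its targets. Ifit1 (chr19:34640871-34650009) read 11.1, 14.2 and 10.1 CPM in CON and 7.19, 8.34 and 6.07 CPM in T + E2, a log2 fold change of −0.71 ± 0.19 (adjusted p = 0.0327). Ifi44 (chr3:151730922-151749960), an interferon-induced gene known for its antiviral effect, read 7.68, 5.78 and 5.41 CPM in CON and 3.94, 3.41 and 2.00 CPM in T + E2. Its log2 fold change was −1.01 ± 0.28 (adjusted p = 0.0414), and for both genes the groups did not overlap.

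Neither call held without every single mouse. Without CON 1, CON 2, T + E2 1 or T + E2 3 the adjusted p of Ifit1 was 0.0548, 0.0962, 0.0830 and 0.0814. For Ifi44 it was 0.105 without CON 1, 0.0721 without CON 2, 0.0693 without CON 3, 0.0915 without T + E2 2 and 0.0745 without T + E2 3.

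The neighbours of Ifit1 on chromosome 19 had smaller differences, although the promoter of Ifit3 printed above has the same ISRE core pair. Ifit3 had a log2 fold change of −0.20 and Ifit2 one of 0.26, neither past the test (adjusted p = 0.441 and 0.269). Ifit3 shares 97.8% of 1700 transcript bases with Ifit3b, so its counts are uncertain. Ifi35, a leucine zipper protein induced by interferon, was the third most abundant member by FPKM, a level per length. Its CPM, which is not per length, was 25.8, 23.0 and 29.6 in CON and 21.0, 22.0 and 23.0 in T + E2. CON 2 and T + E2 3 met at the same level, and the test was not passed (log2 fold change −0.25 ± 0.12, adjusted p = 0.180). Isg15 itself was at −0.46 (adjusted p = 0.328) and Usp18 at −0.57 (adjusted p = 0.0923), where Usp18 was lower in every T + E2 mouse.

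The OAS family moved in both directions. OAS enzymes make oligoadenylates upon binding double-stranded RNA and thereby switch on RNase L, and Oasl1 and Oasl2 are OAS-like proteins with a ubiquitin-like tail. Of these 6 genes with PKR, 1 rose, 1 fell and 4 did not pass the test. That is 16.7% each way, against 10.4% of all genes tested higher and 9.25% lower. Oas2 (chr5:120730333-120749853) was measured at 3.77, 4.99 and 4.53 CPM in CON and 9.27, 9.56 and 11.1 CPM in T + E2. It had the largest rise of the 39 genes, with a log2 fold change of 1.17 ± 0.17 (adjusted p = 0.00308), and every treated mouse was above every control.

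Oasl2 (chr5:114896936-114912234) went the other way, from 35.2, 33.7 and 37.9 CPM in CON to 20.5, 20.2 and 20.4 CPM in T + E2. Its log2 fold change was −0.81 ± 0.09 (adjusted p = 0.000808), the smallest adjusted p of the 39 genes. The coefficient of variation among the treated mice was 0.801%, the narrowest spread of any member in either group. At their 296, 331 and 305 counts, counting error alone would usually give a wider spread, so this value does not measure how alike the mice were. Oas2 and Oasl2 lie on the same chromosome, and the call on each held without any single mouse and without both libraries with seminal vesicle transcripts.

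Eif2ak2 (PKR), the kinase that stops translation on sensing double-stranded RNA, had 30.5, 32.6 and 33.2 CPM in CON and 39.7, 38.2 and 35.1 CPM in T + E2. Every treated mouse was above the controls, but the difference was small (log2 fold change 0.23 ± 0.09, adjusted p = 0.114). Oas1a was at 0.34, Oas3 at 0.46 and Oasl1 at −0.56 on the log2 fold change scale, none past the test. Oas1a shares 97.6% of 1861 bases with Oas1g, so reads could be split between them. Oas3 was the least abundant member per length, at 0.208 FPKM in CON and 0.276 FPKM in T + E2.

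**Figure D2:**
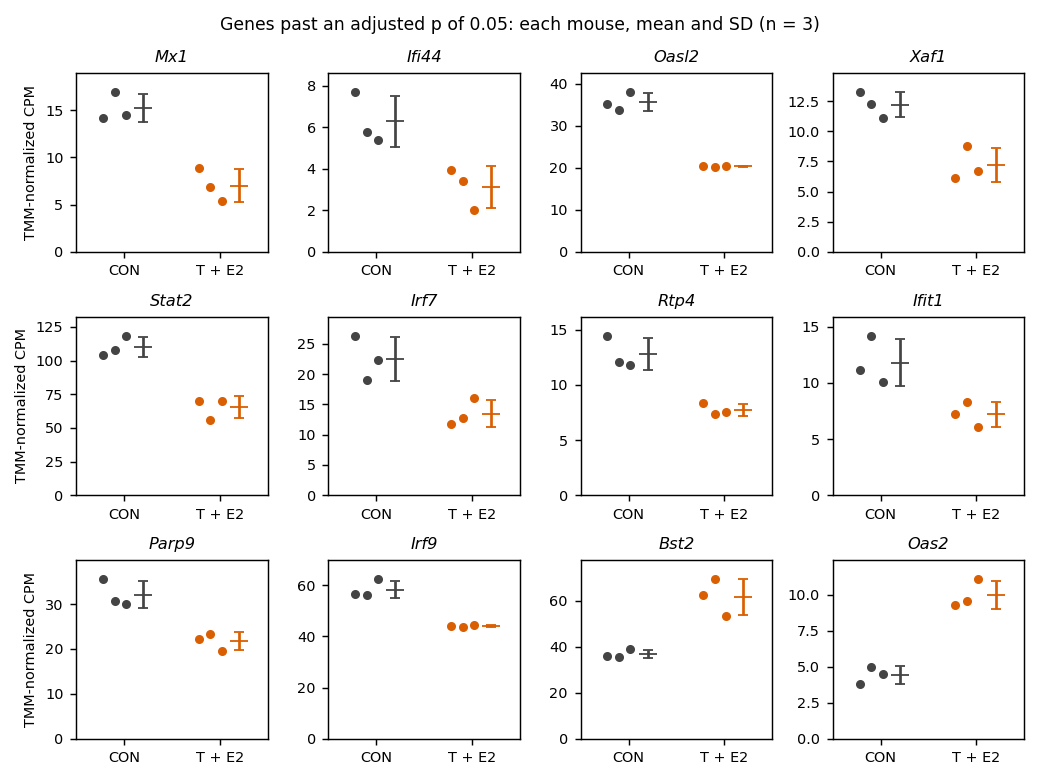
TMM-normalized CPM (y axis, from 0) of the 12 genes that passed an adjusted p of 0.05. Each point is a mouse, and the bar beside the points gives the mean and SD of 3 mice. In each of the 12 panels the CON and T + E2 points do not overlap, with Bst2 and Oas2 higher and the other 10 genes lower in T + E2. The choice of genes by adjusted p largely fixed this separation.

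Among the 7 other antiviral genes, Mx1, Rtp4 and Xaf1 fell and Bst2 rose (42.9% and 14.3%, against 9.25% and 10.4% of all genes tested). Mx1 (chr16:97447035-97462907) encodes a dynamin-like GTPase that blocks influenza virus, and C57BL/6 mice are known to carry a defective allele. Its levels were 14.2, 16.9 and 14.5 CPM in CON and 8.85, 6.82 and 5.34 CPM in T + E2, the largest fall of the 39 genes (log2 fold change −1.12 ± 0.19, adjusted p = 0.00609). Its neighbour Mx2 had a log2 fold change of −0.68 (adjusted p = 0.192), and the pair share 94.8% of 921 transcript bases.

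Rtp4 (chr16:23609919-23614222), a chaperone of cell-surface receptors that is strongly induced by interferon, read 14.4, 12.0 and 11.8 CPM in CON and 8.37, 7.37 and 7.54 CPM in T + E2. The log2 fold change was −0.72 ± 0.14 (adjusted p = 0.0111), and 296 of its exon bases are shared with Gm45338 on the same strand. Xaf1 (chr11:72301629-72313733), a pro-apoptotic protein that antagonizes XIAP, read 13.2, 12.3 and 11.1 CPM in CON and 6.09, 8.77 and 6.74 CPM in T + E2. Its log2 fold change was −0.76 ± 0.17 (adjusted p = 0.0193), and the adjusted p was 0.0538 without CON 1, 0.0611 without T + E2 1 and 0.0547 without T + E2 3. Rsad2 (viperin), which makes a chain-terminating nucleotide, and Samd9l, a restriction factor of poxviruses, were at −0.43 and 0.41 and did not pass.

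Bst2 (chr8:71534264-71537437), or tetherin, holds budding virus particles on the cell membrane and was the most abundant member per length. It was measured at 35.8, 35.7 and 38.9 CPM in CON and 62.3, 69.2 and 53.4 CPM in T + E2. The controls were close together and the treated mice more spread, all above the controls (log2 fold change 0.75 ± 0.11, adjusted p = 0.00325). Per length this was 48.7 ± 1.55 FPKM in CON and 79.5 ± 9.71 FPKM in T + E2 (SD, n = 3).

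Parp9 and Parp14 are partners in ADP-ribosylation that tune interferon signalling. Parp9 (chr16:35938470-35972605) read 35.5, 30.8 and 30.0 CPM in CON and 22.1, 23.4 and 19.5 CPM in T + E2, a log2 fold change of −0.56 ± 0.11 (adjusted p = 0.0116). Parp14, its neighbour on chromosome 16, lay between 47.0 and 53.9 CPM in all 6 mice, with a log2 fold change of −0.08 (adjusted p = 0.548; 95% interval −0.25 to 0.09). Dtx3l, the ubiquitin ligase that binds PARP9 and shares its promoter region, is not one of the 39 and was looked up after these values were seen. It was lower too, at −0.61 ± 0.10 (adjusted p = 0.0049). The exons of Dtx3l and Parp9 overlap by 458 bases on opposite strands, and the library kit is not stated to keep strand, so reads there cannot be told apart.

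None of the 8 interferon-induced GTPases passed the test. These guanylate-binding proteins (Gbp2, Gbp3, Gbp5, Gbp7) and immunity-related GTPases (Iigp1, Igtp, Irgm1, Irgm2) attack the vacuoles of intracellular parasites and are classic targets of type II interferon. Their median log2 fold change was 0.30, from −0.34 (Igtp) to 0.58 (Iigp1), with 6 positive. Leaving out each mouse in turn, that median lay between 0.11 (without CON 3) and 0.49 (without CON 1), with 5 to 7 positive. The count was 0 by DESeq2 too, and 0 at an unadjusted edgeR p under 0.05. For each of the 8 the CON and T + E2 values overlapped.

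Iigp1 had the largest difference of the 8, with 11.9, 5.98 and 5.34 CPM in CON and 13.6, 13.3 and 7.74 CPM in T + E2. CON 1 lay among the treated mice and T + E2 3 among the controls (log2 fold change 0.58 ± 0.34, adjusted p = 0.264). Without CON 1 it was higher in T + E2, at 1.02 (adjusted p = 0.0459), so 1 library decided its call. Gbp7 ranged most, with 12.9, 11.2 and 3.14 CPM in CON and 13.2, 16.1 and 9.74 CPM in T + E2. Igtp and Irgm2 share 162 exon bases on the same strand, and Gbp7 contains the 637 bases of the pseudogene Gm43802, so these counts are uncertain.

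The GTPase genes varied between mice more than the rest and in the same order. Their median coefficient of variation was 23.9% in CON and 21.0% in T + E2, against 13.2% and 15.7% over all 39 members. In CON, mouse 1 was the highest and mouse 3 the lowest for all 8 genes. In T + E2, mouse 2 was the highest for 7 and mouse 3 the lowest for all 8. Over the other 31 members, CON 1 was the highest control for 11 and CON 3 the lowest for 16, while T + E2 2 was the highest treated mouse for 16 and T + E2 3 the lowest for 18.

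The summed level of the 8 GTPases was 122, 98.8 and 78.0 CPM in CON and 114, 127 and 90.2 CPM in T + E2. The 6 T cell markers Cd3d, Cd3e, Cd3g, Cd4, Cd8a and Trac summed to 10.3, 6.83 and 4.21 CPM in CON and 7.75, 9.07 and 5.07 CPM in T + E2. In these sums the same mice were highest and lowest in each group, but of the single T cell markers only Cd8a had that order in both groups. In T + E2, Cd4 was at 1.87, 1.40 and 1.33 CPM and Trac at 1.04, 0.79 and 0.27 CPM. Cd3d was also highest in T + E2 1, whereas Cd3e and Cd3g were lowest there. Between the groups, 0 of the 5 T cell markers that could be tested passed by edgeR or DESeq2, with 0 at an unadjusted edgeR p under 0.05, and their part in the GTPase levels was not tested. The 5 NK cell markers summed to 3.64, 2.89 and 2.01 CPM in CON and 2.21, 2.86 and 2.07 CPM in T + E2, again with these mice highest and lowest. Of the single NK cell markers only Gzma had that order in both groups, and the other 4 had too few counts to be tested. The macrophage markers Adgre1, Csf1r and Cd68 also had it in both groups, whereas Mrc1, C1qa, C1qb and C1qc were lowest in T + E2 1. The part of NK cells and macrophages in the GTPase levels was not tested.

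**Figure D3:**
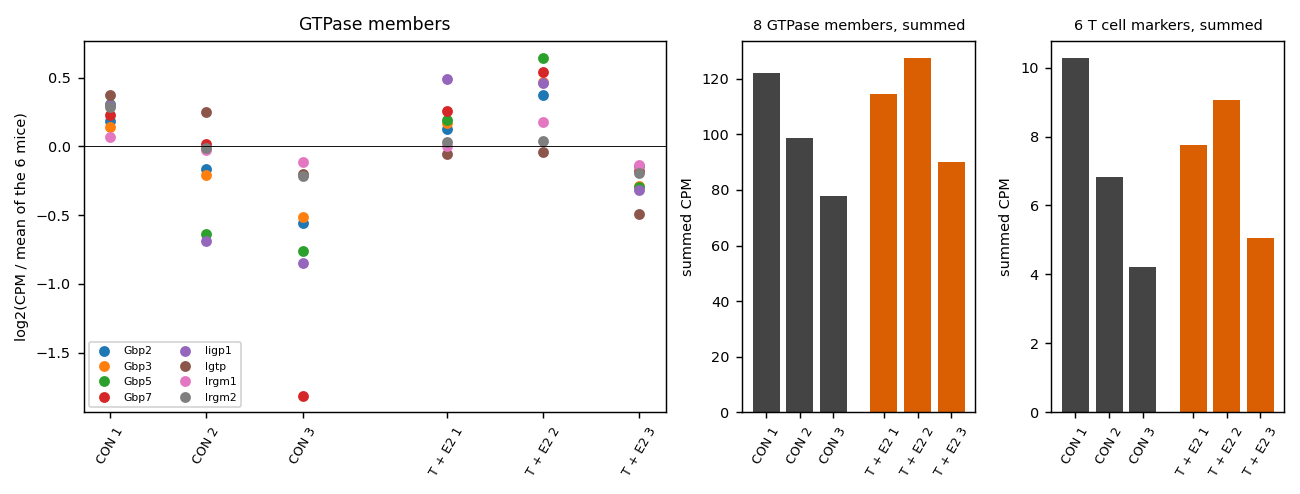
Left, level of each of the 8 GTPase genes in each mouse as log2 of its CPM over its mean of 6 mice (y axis). Middle and right, summed CPM per mouse (bars, from 0) of the 8 GTPases and of the 6 T cell markers. In both sums CON 1 is the highest and CON 3 the lowest control, and T + E2 2 is the highest and T + E2 3 the lowest treated mouse. Of the single T cell markers, only Cd8a had this order in both groups.

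Cell types of the prostate also differed in their markers. Of 7 macrophage markers, 4 were higher in T + E2 (Mrc1, C1qa, C1qb and C1qc), or 57.1% against 10.4% of all genes tested. Adgre1, Csf1r and Cd68 had log2 fold changes of 0.31, 0.23 and 0.14 and did not pass (adjusted p = 0.475, 0.360 and 0.521). The summed level of the 7 was 187 to 249.7 CPM in CON and 278 to 409 CPM in T + E2. The 4 pan-leukocyte markers summed to 52.4 to 119 CPM in CON and 94.2 to 127 CPM in T + E2, with 0 past the test by edgeR or DESeq2 and 0 at an unadjusted p under 0.05. The 5 luminal epithelial markers summed to 17640 to 22799 CPM in CON and 9369 to 10392 CPM in T + E2, where Pbsn and Krt18 were lower and Msmb higher. Of 4 markers of plasmacytoid dendritic cells, strong producers of type I interferon, the defining gene Siglech was at 0.530, 0.920 and 0.566 CPM in CON and 1.11, 1.77 and 0.868 CPM in T + E2 (log2 fold change 0.89, adjusted p = 0.152). Ccr9 was at 0.346 CPM or less in all mice and could not be tested, while the less specific Pacsin1 was lower (log2 fold change −1.46, adjusted p = 0.0220) and Tcf4 higher (0.63, adjusted p = 0.00738). The 5 neutrophil markers summed to 2.38 to 3.68 CPM in CON and 1.11 to 6.94 CPM in T + E2, and 0 of the 2 that could be tested passed. Among them Ly6g was at 0.189 CPM or less in all mice, while Csf3r lay between 1.01 and 2.10 CPM. S100a9 ranged from 0 CPM in T + E2 1 to 3.11 CPM in T + E2 2. The part of these cell types in the levels of the interferon-stimulated genes was not tested.

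Levels per length showed how weak most of these genes were in the prostate. Only Bst2 and Stat2 reached a mean of 10 FPKM, in both groups, and 32 members in CON and 33 in T + E2 reached 1 FPKM. Stat2 ranked second in both groups, at 24.8 ± 1.28 FPKM in CON and 14.4 ± 1.79 FPKM in T + E2 (SD, n = 3). Ifi35 followed at 8.78 ± 0.968 and 7.23 ± 0.533 FPKM. In CON, Ifi35 and Rtp4 (8.22 ± 1.00 FPKM) did not differ beyond their spread. Oasl2 moved from rank 18 in CON to 25 in T + E2, Mx1 from 21 to 29, and Oas2 from 36 to 32.

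Promoter letters were set beside these results. The ISRE core was found in 7 of the 7 GTPase genes with a listed promoter and the GAS core in 4 of them. It was found in 2 of the 7 lower genes that were listed (Stat2 and Ifit1), in Bst2, and in 15 of the 21 listed genes that did not pass the test. Promoters of Oas2, Mx1, Rtp4, Parp9, Zbp1, Iigp1, Mx2, Parp14, Usp18 and Dhx58 were not analysed here. Genes with the same core therefore included a lower gene (Ifit1), a higher gene (Bst2) and genes with no call (Ifit3, Isg15 and Gbp7).

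A list of 99 further table rows for the interferon system was then examined, of which 76 could be tested. In T + E2, 8 were higher (10.5%) and 11 lower (14.5%), against the same backgrounds as above, and the median log2 fold change was 0.03. Without CON 2 and T + E2 2, 8 of the 76 passed (10.5%, against 8.65% of all genes in that fit), and all 8 were among the 19 called with every mouse: Ifnar2, Ifngr1, Jak2, Tmem173, Ifi204, Isg20, Ifitm1 and Sp100.

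Interferon genes themselves were hardly detected. Of 21 ligand genes, none could be tested and 17 had no count in any mouse, which allows up to 0.183 to 0.208 CPM per library (3 counts). Ifng, the type II interferon, had 2 counts in CON 1 and 1 in T + E2 3. Ifna16 and Ifnab had 1 count each, in CON 3. Ifne, a type I interferon of reproductive tract epithelium, had 0, 1 and 0 counts in CON and 7, 11 and 10 counts in T + E2. Its pooled counts per TMM-scaled library total were 28.2 times as high in T + E2, with an exact 95% interval from 4.67 to 1154 that covers counting error only. Without a filter on low counts, the edgeR test gave Ifne a log2 fold change of 4.37 ± 0.88 (adjusted p = 0.00921), a value that depends on the prior count.

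Of the 6 receptor chains, 1 rose and 2 fell (16.7% and 33.3%, against 10.4% and 9.25% of all genes tested). Ifnar2, the chain of the type I receptor that binds interferon most tightly, rose from 22.4, 23.3 and 26.3 CPM in CON to 40.1, 39.8 and 51.3 CPM in T + E2 (log2 fold change 0.87 ± 0.13, adjusted p = 0.00298). Its partner Ifnar1 was at 0.10 (adjusted p = 0.482). Ifngr1, the ligand-binding chain of the type II receptor, fell from 84.4, 73.9 and 78.1 CPM to 45.2, 49.8 and 51.0 CPM (log2 fold change −0.69 ± 0.09, adjusted p = 0.00208). Its partner Ifngr2 fell as well, by 0.45 on the log2 scale (adjusted p = 0.0176). The type III receptor chains Ifnlr1 and Il10rb were at 0.30 (adjusted p = 0.111) and 0.02 (adjusted p = 0.940).

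Of 9 signalling genes, the receptor kinases Jak1 and Jak2 rose, with log2 fold changes of 0.41 (adjusted p = 0.0212) and 0.89 (adjusted p = 0.00149), and Irf2, a repressor that competes with IRF1, fell by 0.58 (adjusted p = 0.00921). That is 22.2% higher and 11.1% lower, against 10.4% and 9.25% of all genes tested.

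Of 13 further genes of nucleic acid sensing, 3 rose and 2 fell (23.1% and 15.4%, against 10.4% and 9.25% of all genes tested). Tlr3, the endosomal receptor for double-stranded RNA, rose by 0.54 (adjusted p = 0.0111), Tmem173 (STING) by 0.79 (adjusted p = 0.00147) and Ifi204, a DNA sensor, by 1.05 (adjusted p = 0.00731) on the log2 scale. The adaptors Mavs and Myd88 had log2 fold changes of −0.30 (adjusted p = 0.0498) and −0.50 (adjusted p = 0.0248). Of 12 genes that restrain the response, 0 passed by edgeR or DESeq2, and 1 had an unadjusted edgeR p under 0.05. Socs1, which blocks JAK kinases, was at −0.04 (adjusted p = 0.929).

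Among 36 tested interferon-induced genes outside the 39, 2 rose and 6 fell (5.56% and 16.7%, against 10.4% and 9.25% of all genes tested). Isg20, an exonuclease that degrades viral RNA, rose from 25.2, 31.7 and 29.4 CPM in CON to 75.5, 88.9 and 86.1 CPM in T + E2 (log2 fold change 1.54 ± 0.12, adjusted p = 0.000124). Ifitm2, which blocks virus entry, rose by 0.49 (adjusted p = 0.0128), while Ifitm1 of the same family had a log2 fold change of −0.86 (adjusted p = 0.00861). The lower genes also included the nuclear body protein Sp100 (−0.98, adjusted p = 0.00136), the mitochondrial kinase Cmpk2 (−0.80, adjusted p = 0.00556), Oas1b (−0.75, adjusted p = 0.0165), the peptide transporter Tap1 (−0.54, adjusted p = 0.0409) and Ifi27 (−0.50, adjusted p = 0.0126). Values of the 2 groups did not overlap for any of these 8 genes, but the choice by adjusted p largely fixed this. Of all 36 tested, 11 (30.6%) did not overlap, against 40.7% of all genes tested.

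Of these 19 calls among the further genes, 11 held without each single mouse and 8 did not. Mavs was lost whichever of the 6 mice was left out (adjusted p from 0.0639 to 0.152), and Tap1 whichever was left out except CON 3 (0.0601 to 0.114). Ifngr2 was lost without CON 2 (adjusted p = 0.0676), T + E2 1 (0.0631) or T + E2 2 (0.0553). Jak1 was lost without CON 2 (0.0540), CON 3 (0.0797) or T + E2 2 (0.0505), and Myd88 without CON 2 (0.0651) or CON 3 (0.0822). A single mouse decided Ifitm2 (CON 2, 0.0510), Oas1b (CON 3, 0.0577) and Ifi27 (T + E2 1, 0.0517).

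**Figure D4:**
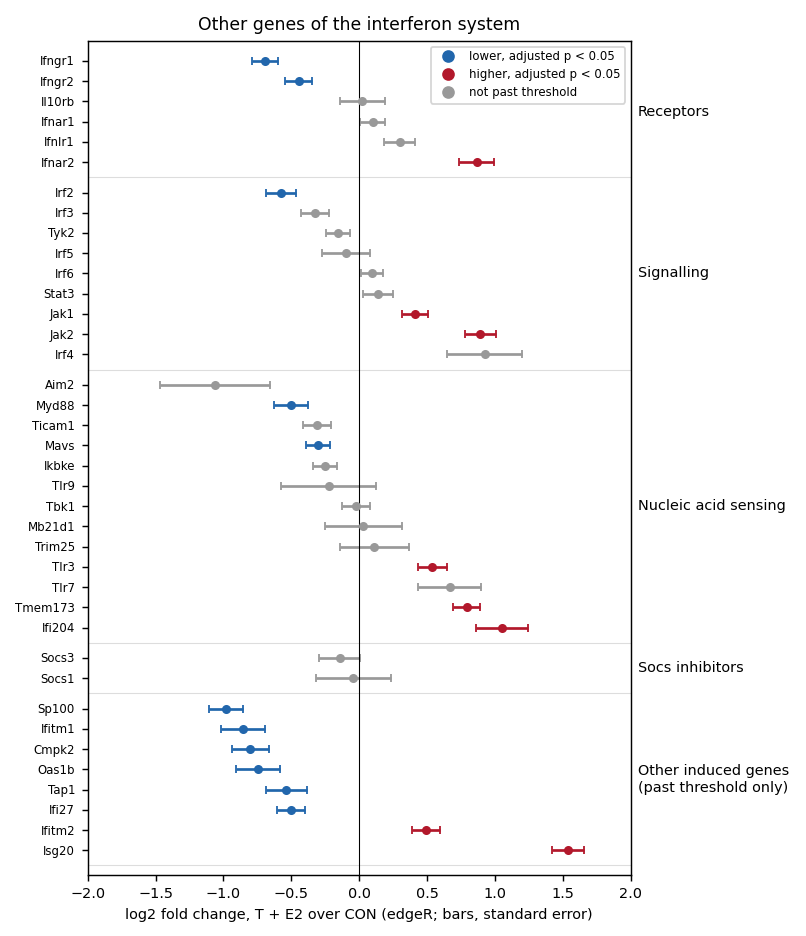
Log2 fold change, T + E2 over CON (x axis; bars, standard error of the edgeR fit, 3 mice per group), of receptors, signalling genes, nucleic acid sensors, Socs inhibitors, and those other interferon-induced genes that passed an adjusted p of 0.05. Ifngr1 and Ifngr2 lie left of 0 and Ifnar2 right of it, and Isg20 lies farthest right at 1.54.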

How the data were processed

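The authors deposited, for each gene, whole read counts and FPKM values of each mouse in 1 table. Libraries came from the TruSeq kit. TopHat, Bowtie2 and HTSeq are named in the submitters' processing notes, while their versions and the strand setting of the counting were not given in the sources used here. The deposited FPKM were proportional to the counts within each library. Members and lists were chosen with earlier results of these data known.

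Counts were scaled by TMM, filtered by edgeR's filterByExpr (a count of at least 10 in at least 3 mice at the median library size), and tested with the quasi-likelihood test of edgeR 4.0.16 in R 4.3.3, all 6 mice, no covariate, with Benjamini-Hochberg adjustment over all genes tested. CPM are TMM-normalized. An exact permutation test of 3 against 3 mice cannot go below 0.1 and was not used. Scripts were tested on simulated data. DESeq2 1.42.0 and limma 3.58.1 on log2(FPKM + 0.1) or log2(FPKM + 1), other scalings and filters, a replicate block, and leaving out each mouse were alternatives. Replicates differed by far more than counting noise (chi-square per degree of freedom from 17.8). The interval of a count ratio covers counting error only, as reads carried no molecular identifiers, and the 95% interval of a log2 fold change comes from the standard error of the edgeR fit. Given in full were the members past the threshold, the 6 highest by FPKM and the largest change of each role. Pathway genes were named when past the threshold, besides ligands, receptors and Socs1; 1 signalling gene is not reported here. Ifi207 was not analysed here, and Gbp6 has 2 rows. Coordinates are those of the deposited table and overlap the same genes in GENCODE M21 (GRCm38). Similar transcripts were sought with BLAST 2.17.0+ (at least 90% identity over at least 400 bases).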

Additional observations from a re-analysis of the deposited data

How the results depend on the processing

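The 12 calls, 2 higher and 10 lower, were the same genes under median-of-ratios scaling, total-count scaling, no filter, DESeq2 and both limma fits. With an FPKM of at least 1 required, Ifi44 was not tested and 11 calls remained. Replicate numbers name different mice, and over all genes tested the mice of a number deviated from their groups with little correlation (−0.0516, 0.0275 and 0.0463 for numbers 1, 2 and 3). Such correlations cannot show a link limited to some genes, such as the seminal vesicle transcripts of CON 2 and T + E2 2. With the replicate block, 2 members were higher and 10 lower, with the same 12 calls, while over all genes 1229 were higher and 945 lower against 1620 and 1441 without the block. Leaving out each mouse in turn gave 6 to 8 lower members, 2 to 3 higher members, 1 to 3 members with an absolute log2 fold change over 1, and 14 to 22 pathway genes. The lower members were 15.4% to 20.5% of the members, against 5.26% to 7.97% of all genes in the same fits. Over all genes, 1095 to 1474 were higher and 834 to 1267 lower. Members with an absolute log2 fold change over 1 numbered 0 with limma on log2(FPKM + 1), a scale that understates changes of low genes. Without CON 2 and T + E2 2, an alternative chosen after seeing the data with 2 mice per group, there were 3 lower members, 1 over that fold and 8 pathway genes, and the highest adjusted p of a lost call was 0.145 (Ifi44). Stat2, Oas2, Oasl2 and Bst2 passed in all 15 alternatives, and no named member that was called reversed. Oas2 met the FPKM filter only through the T + E2 mice (1.08 to 1.37 FPKM, against 0.469 to 0.624 FPKM in CON). Its call in that setting is therefore no separate support. Depth limits the ligand genes, with 17 of 21 at 0 counts.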

Other observations

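Ratios of counts within a library do not depend on how libraries are scaled against each other, and a few pairs of related genes were set side by side after their values were seen, with no test. Ifit1 had 1.02, 1.29 and 1.03 counts per Ifit2 count in CON and 0.601, 0.555 and 0.555 in T + E2. Oas2 had 0.107, 0.148 and 0.119 counts per Oasl2 count in CON and 0.453, 0.474 and 0.544 in T + E2. Bst2 had 0.344, 0.331 and 0.328 counts per Stat2 count in CON, and 0.889, 1.24 and 0.762 in T + E2. Between the type II and type I receptors, Ifngr1 had 3.77, 3.18 and 2.97 counts per Ifnar2 count in CON and 1.13, 1.25 and 0.995 in T + E2. The 3 CON ratios and the 3 T + E2 ratios did not overlap in these 4 pairs, each of which sets a called gene against one that was called the other way or not called, so the choice of pairs largely fixed this. Oas2 had 1.54, 3.17 and 4.0 counts per Oas3 count in CON and 4.47, 3.14 and 5.72 in T + E2, so that pair overlapped. The ratio of Parp9 to Dtx3l was 1.19, 1.02 and 1.10 in CON and 1.21, 1.28 and 0.945 in T + E2, so those groups overlapped.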
